A study of Mus musculus with 12 samples.

Results

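Tropomyosins and profilins were followed here as the 6 mouse genes Tpm1, Tpm2, Tpm3, Tpm4, Pfn1 and Pfn2. The members are all probe sets that the platform annotation assigns to 1 of these genes and to no other gene. That gave 18 of the 34945 single-gene probe sets on the array, which cover 18193 genes. They comprise 4 probe sets of Tpm1, 4 of Tpm2, 5 of Tpm3, 1 of Tpm4, 1 of Pfn1 and 3 of Pfn2. The genes were picked because Tpm1, Tpm2 and Pfn2 differed between label-retaining and other cells in a way that depended on the layer. Those differences are therefore given as a description with no test. The comparisons between layers were not part of that rule and were tested. They use the same arrays, and the genes were chosen with earlier results of these data known.

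The study profiled 12 samples of cells sorted by flow cytometry from the back skin of mice, on oligonucleotide arrays that report an intensity per probe set. Every mouse carried K5-tTA, which drives the tetracycline transactivator from the keratin 5 promoter, along with a pTRE-H2B-GFP reporter, a Rosa-tdTomato reporter and the recombinase K14-CreER. All of them ate food with 1 g/kg doxycycline for 2 weeks, were injected once with 75 mg/kg tamoxifen and were killed 1 week later, in second telogen. Doxycycline stops the synthesis of H2B-GFP, which is then diluted as cells divide. There are 3 samples each of BL LRC and BL non-LRC and 2 each of GL, SL LRC and SL non-LRC. BL, SL and GL are read as basal, spinous and granular layer and LRC as label-retaining cell, from what is known of the study, since the labels abbreviate them. No group was left without doxycycline or tamoxifen, the sources used here do not give the sorting gates, and nothing in the labels says that each sample came from its own animal. A p-value here speaks of the spread among these 12 samples, which may be technical.

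Epidermal markers followed the layer names in part. In GL against BL, 10 of 11 granular keratinocyte markers were higher (median 3.34 log2 units) and 6 of 10 basal markers lower. In SL against BL 5 of 8 spinous markers were higher and 6 of 10 basal markers lower. Granular markers (7 of 11, with 1 lower), bulge and outer root sheath markers (4 of 8) and infundibulum and sebaceous markers (4 of 9) were also higher there. The spinous markers summed to 91713 and 77919 in SL non-LRC and to 145150 and 139160 in SL LRC. In BL LRC they summed to 89242 to 105760 and in BL non-LRC to 58330 to 71641. In GL against SL, 3 of 11 granular markers were higher and 1 lower. In either direction, 16.5% of all genes were called in GL against BL, 4.71% in SL against BL and 7.66% in GL against SL. Follicle markers rose in GL against BL too, 8 of 8 of the bulge and outer root sheath (median 3.22) and 7 of 8 of the hair shaft and inner root sheath (median 4.74). GL and SL are therefore used here as labels of fractions. Between 68.1% and 78.4% of genes lay above an array's background floor, which was 22.4 to 42.6 intensity units, and arrays of a group correlated at r = 0.925 to 0.932. Signal of the hybridisation control BioB fell into a low set of 4 arrays (467 to 524 units) and a high set of 8 (2885 to 3931). The low set holds both SL non-LRC arrays and replicate 1 of BL LRC and of BL non-LRC, so in SL the BioB set and the LRC label cannot be told apart. BL LRC 1 and BL non-LRC 1 also had 0 of 3 Y-linked genes above the floor, against 3 on the other arrays.

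Tropomyosins are coiled-coil dimers that lie end to end along the actin filament and control the access of myosin, cofilin and other actin-binding proteins. Each gene gives several isoforms through alternative promoters and splicing. Tpm1 and Tpm2 are best known for the long isoforms of muscle and of stress fibres, whereas Tpm3 and Tpm4 supply much of the short cytoplasmic pool. Profilins bind actin monomers and deliver them to formins and other elongation factors that carry polyproline stretches. Pfn1 is the widespread form and Pfn2 is best known from brain. In epidermis, actin filaments anchor at adherens junctions and at cell-matrix contacts, and keratinocytes reorganise them as they leave the basement membrane.

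The promoters of Tpm1, Tpm2 and Pfn2 are printed because their probe sets changed most between the layers, and that of Pfn1 because this paralogue of Pfn2 did not pass a test. Each window runs from 250 bases before to 50 bases after the start site of a RefSeq entry (GRCm38.p6). All 4 genes lie on the minus strand, and the windows are Tpm1 at chr9:67049164-67049463, Tpm2 at chr4:43523505-43523804, Pfn2 at chr3:57847708-57848007 and Pfn1 at chr11:70654601-70654900. Capitals mark matches on either strand to GGAATG, a motif of TEAD factors, and GGGCGG, a motif of SP factors. Both motifs were chosen after the sequences had been seen.
Tpm1 promoter: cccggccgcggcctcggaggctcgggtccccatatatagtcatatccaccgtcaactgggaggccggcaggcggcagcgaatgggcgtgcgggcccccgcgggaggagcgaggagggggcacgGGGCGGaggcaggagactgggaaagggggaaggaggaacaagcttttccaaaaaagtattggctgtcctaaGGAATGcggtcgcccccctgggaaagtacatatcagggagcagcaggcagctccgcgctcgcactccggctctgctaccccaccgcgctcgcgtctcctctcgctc
Tpm2 promoter: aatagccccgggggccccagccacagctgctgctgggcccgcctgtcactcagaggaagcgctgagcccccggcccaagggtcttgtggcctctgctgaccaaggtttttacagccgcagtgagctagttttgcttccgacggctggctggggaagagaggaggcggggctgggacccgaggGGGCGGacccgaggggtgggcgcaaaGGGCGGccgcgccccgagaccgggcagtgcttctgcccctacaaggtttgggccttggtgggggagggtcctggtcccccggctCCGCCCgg
Pfn2 promoter: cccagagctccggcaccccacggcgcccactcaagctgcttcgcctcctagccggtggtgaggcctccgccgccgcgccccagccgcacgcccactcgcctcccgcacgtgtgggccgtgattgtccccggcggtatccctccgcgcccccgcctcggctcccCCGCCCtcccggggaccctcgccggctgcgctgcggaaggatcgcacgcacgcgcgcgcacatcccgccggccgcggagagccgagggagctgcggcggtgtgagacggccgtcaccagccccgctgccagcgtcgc
Pfn1 promoter: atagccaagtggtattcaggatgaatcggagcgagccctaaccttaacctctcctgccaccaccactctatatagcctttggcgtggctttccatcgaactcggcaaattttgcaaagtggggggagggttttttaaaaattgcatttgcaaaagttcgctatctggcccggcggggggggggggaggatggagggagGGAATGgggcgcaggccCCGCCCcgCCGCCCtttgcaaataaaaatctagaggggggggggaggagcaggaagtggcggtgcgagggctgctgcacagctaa
These windows differ in base composition. Tpm1 has 66.3% G and C with 27 CpG, Tpm2 70.3% with 20, Pfn2 77.7% with 45 and Pfn1 57% with 14, against a median of 52.7% and 7 CpG over 32851 promoter windows of this length. GGAATG stands at -56 in Tpm1 and at -52 in Pfn1 and in neither of the other 2 windows. It occurs in 14.7% of all windows. GGGCGG or its complement occurs once in Tpm1 and once in Pfn2, at 2 places in Pfn1 and at 3 in Tpm2, and in 35.7% of all windows. No match of one motif overlapped a match of another. TGANTCA, the AP-1 motif (7.81% of windows), and CCWWWWWWGG with W for A or T, the CArG box bound by SRF (1.63%), had 0 matches in the 7 windows that RefSeq lists for the 6 genes. Near matches, such as ccatatatag to the CArG box in the Tpm1 window, were not counted. A match is a stretch of letters and not a binding site.

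Tpm1 was lowest in BL and SL LRC, higher in SL non-LRC and highest in GL. The brightest probe set, 1423049_a_at, read 4603, 3837 and 3676 intensity units in BL LRC and 5088, 3909 and 2700 in BL non-LRC. It read 3714 and 3028 in SL LRC, 11156 and 9732 in SL non-LRC, and 17435 and 16718 in GL. The 3 lower groups overlapped one another, both SL non-LRC arrays lay above every one of their arrays, and both GL arrays lay above SL non-LRC. Probe set 1423721_at gave the same order, at 1393 to 1928 in BL LRC, 1188 to 1546 in BL non-LRC, 937 and 1709 in SL LRC, 3829 and 4252 in SL non-LRC, and 7963 and 9890 in GL. The dim probe set 1456623_at stayed between 99 and 498 outside GL, with all neighbouring groups overlapping, and read 1679 and 1447 in GL. The remaining one, 1447713_at, was never above the background floor, the only one of the 18 of which this holds, while the other 17 were above it on all 12 arrays.

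Tpm2 followed another order, with LRC below non-LRC in both layers. Probe set 1425028_a_at read 1687, 1411 and 1091 in BL LRC and 3454, 2517 and 3317 in BL non-LRC. It fell to 638 and 863 in SL LRC and stood at 6104 and 6880 in SL non-LRC and at 6173 and 6862 in GL. The LRC group of SL was lowest, then that of BL, then non-LRC of BL and non-LRC of SL, each apart from the next, and GL overlapped the last. Probe sets 1419738_a_at and 1449577_x_at placed the groups alike, except that SL LRC (659 and 934) overlapped BL LRC (915 to 1420) on the former and GL (4628 and 4424) lay just under SL non-LRC (4685 and 4664) on the latter. On the dim 1419739_at, SL LRC (220 and 114), BL LRC (116 to 241) and BL non-LRC (169 to 356) overlapped in turn, and SL non-LRC (772 and 777) overlapped GL (941 and 715).

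Pfn2 resembled Tpm1. Probe set 1418209_a_at read 4541, 4638 and 4205 in BL LRC and 5342, 4385 and 3263 in BL non-LRC. SL LRC gave 2521 and 4046, SL non-LRC 9960 and 8251, and GL 16844 and 17975. As with Tpm1, the first 3 groups overlapped in turn and SL non-LRC and GL stood apart above them. Probe set 1436993_x_at ran from 580 and 843 in SL LRC to 4977 and 7288 in GL, and 1418210_at from 262 and 221 to 2181 and 2294. On 1418210_at SL non-LRC (771 and 488) overlapped BL LRC (283 to 542).

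Pfn1, Tpm3 and Tpm4 varied far less. Pfn1 lay between 12257 and 16364 outside GL and read 19369 and 15776 in GL, each group overlapping the next in order of level. Tpm4 lay between 3321 and 4214 outside GL and read 4019 and 5758 in GL, again with every neighbouring pair overlapping. Of the Tpm3 probe sets, 1427567_a_at stayed between 3596 and 4951 and 1427260_a_at between 3023 and 4811 on all 12 arrays, and the dim 1449996_a_at and 1449997_at ran from 336 to 959 and from 116 to 363. The Tpm3 probe set of highest mean, 1436958_x_at, ranged from 2172 to 5744, and its lowest 3 values (2172 on BL LRC 1, 3470 on SL non-LRC 2 and 3494 on BL non-LRC 1) are all on low-BioB arrays. In BL it was 0.95 log2 units lower on the low-BioB arrays than on the others, where the brightest probe sets of Tpm1, Tpm2 and Pfn2 were 0.47, 0.35 and 0.27 higher. Their other probe sets above background had no common direction, at -0.56 to 0.02 for Tpm1, -0.41 to 0.08 for Tpm2 and -0.45 to 0.58 for Pfn2. Probe sets with the suffix _x_at can hybridise to related transcripts, and those of Tpm3, a gene with many processed copies, are uncertain for that reason. Intensities of different probe sets cannot be set against each other, so no order between genes is given.

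**Figure D1:**
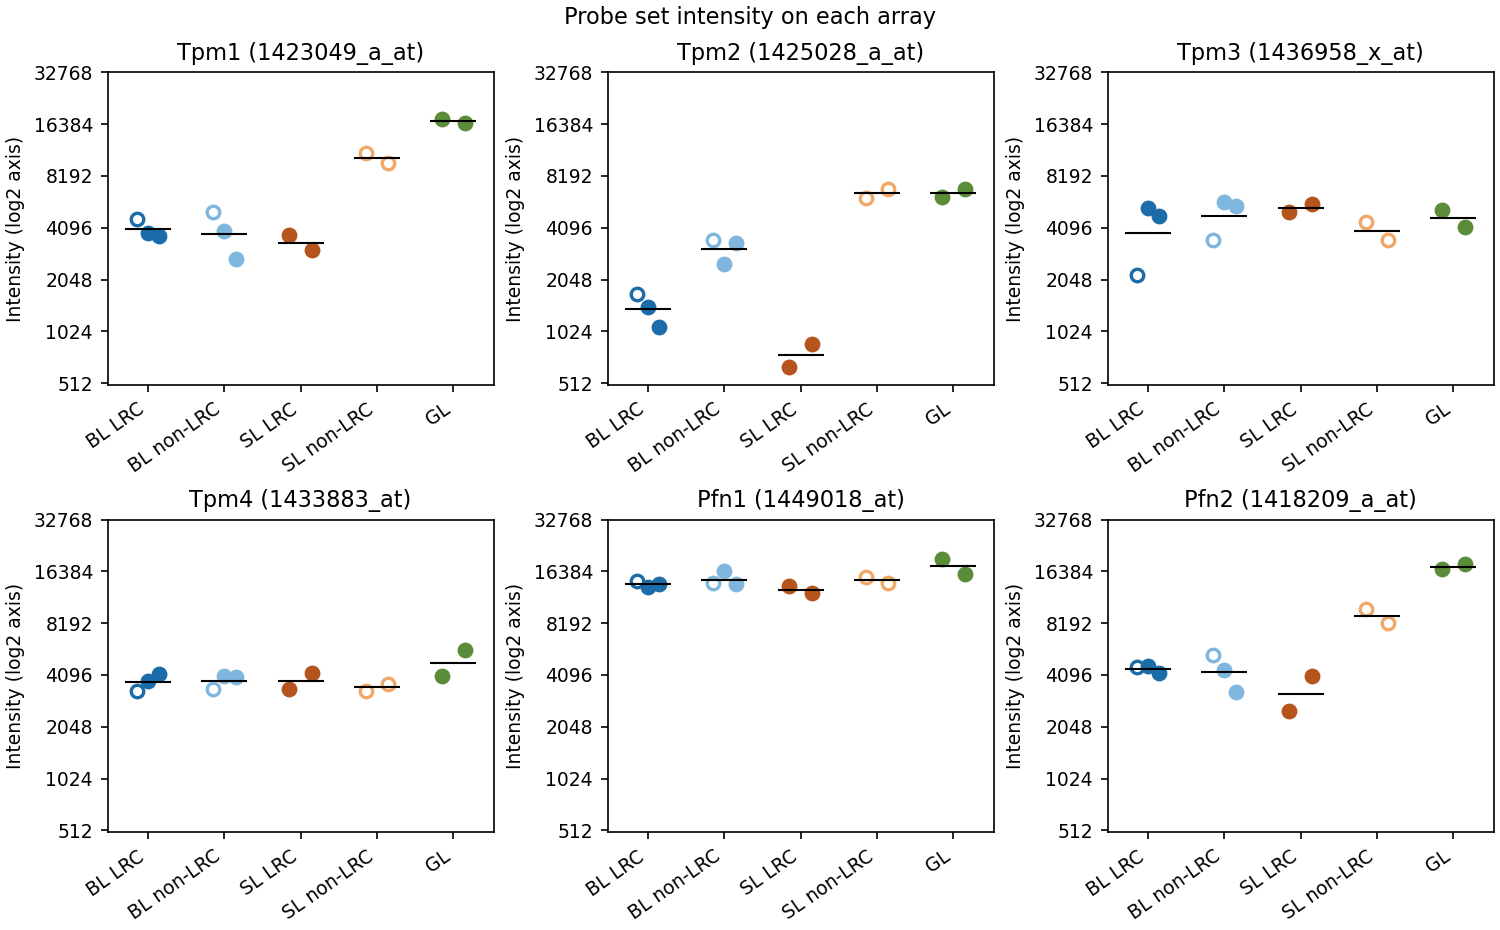
Intensity (log2 axis) of the probe set of highest mean for each of the 6 genes on each of the 12 arrays, by sorted group, with horizontal bars at the mean of log2 values and open symbols for the 4 arrays of low BioB signal. Tpm1 and Pfn2 step up from SL non-LRC to GL, Tpm2 is split by label in both layers and reaches 6173 and 6862 in GL, and for Tpm3, Tpm4 and Pfn1 each group overlaps the next in order of level, although LRC and non-LRC of SL are apart for Pfn1 and Tpm3.

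From the SL to the GL fraction, Tpm1, Tpm2 and Pfn2 rose and the other 3 genes did not pass the test. GL was compared with the mean of both SL groups, by limma over all 34945 probe sets with Benjamini-Hochberg adjustment and a threshold of 0.05. Pfn2 (1418209_a_at) was higher in GL by 1.69 ± 0.20 log2 units (SE, n = 2 and 4), a 3.23-fold difference (adjusted p = 6.13e-05). Tpm1 (1423049_a_at) was higher by 1.53 ± 0.20, or 2.89-fold (adjusted p = 0.00015). Tpm2 (1425028_a_at) was higher by 1.57 ± 0.20, or 2.97-fold (adjusted p = 0.000129). Of the 18 probe sets 9 were called higher, 3 each of Tpm1, Tpm2 and Pfn2, and 0 lower, where 3.65% of all probe sets were called higher and 3.13% lower. In 7 of the 18, all 3 of Pfn2, 3 of Tpm1 and that of Pfn1, both GL arrays lay above every SL array, where 12.6% of all probe sets did. The median difference of the 18 was 1.55, against -0.02 over all probe sets. Tpm2 1419739_at stood at 1.23 ± 0.39 (adjusted p = 0.0681).

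The mean of the SL groups hides how unlike they are. Against SL LRC alone, GL was 5.09-fold higher for Tpm1, 8.77-fold for Tpm2 and 5.45-fold for Pfn2, and against SL non-LRC alone 1.64-fold, 1.00-fold and 1.92-fold. These single-group differences were not tested. For Tpm2 1425028_a_at, GL (6173 and 6862) overlapped SL non-LRC (6104 and 6880). All GL and SL LRC arrays are of high BioB and both SL non-LRC arrays of low BioB.

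Against the basal layer Tpm1, Tpm2 and Pfn2 were higher in GL. Tpm1 rose by 2.13 ± 0.19 log2 units (4.38-fold, n = 2 and 6, limma adjusted p = 6.12e-07). Pfn2 rose by 2.00 ± 0.19 (adjusted p = 1.21e-06). Tpm2 rose by 1.66 ± 0.19 (3.17-fold, adjusted p = 9.47e-06). All 3 measurable Tpm1 probe sets, all 4 of Tpm2 and all 3 of Pfn2 were called higher, 10 of 18 in all, with 0 lower, where 7.64% of all probe sets were called higher and 7.36% lower. In these 10 both GL arrays lay above every BL array, as in 12.6% of all probe sets. The dimmer probe sets gave the larger differences, up to 2.92 ± 0.40 for Tpm1 1456623_at and 2.70 ± 0.28 for Pfn2 1418210_at. Within the high-BioB arrays GL exceeded BL LRC by 2.18, 2.39 and 1.98 and BL non-LRC by 2.39, 1.17 and 2.20 for Tpm1, Tpm2 and Pfn2 in that order.

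Pfn1, Tpm3 and Tpm4 did not pass the test in any layer comparison. Pfn1 was at 0.35 ± 0.13 in GL against SL (adjusted p = 0.122) and at 0.30 ± 0.12 against BL (adjusted p = 0.125). Tpm4 was at 0.41 ± 0.17 (adjusted p = 0.198) and 0.35 ± 0.16 (adjusted p = 0.178). For the 5 Tpm3 probe sets the GL differences ran from 0.02 to 0.32, and the adjusted p from 0.661 to 0.984. A p that misses the threshold does not show that their levels were equal.

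**Figure D2:**
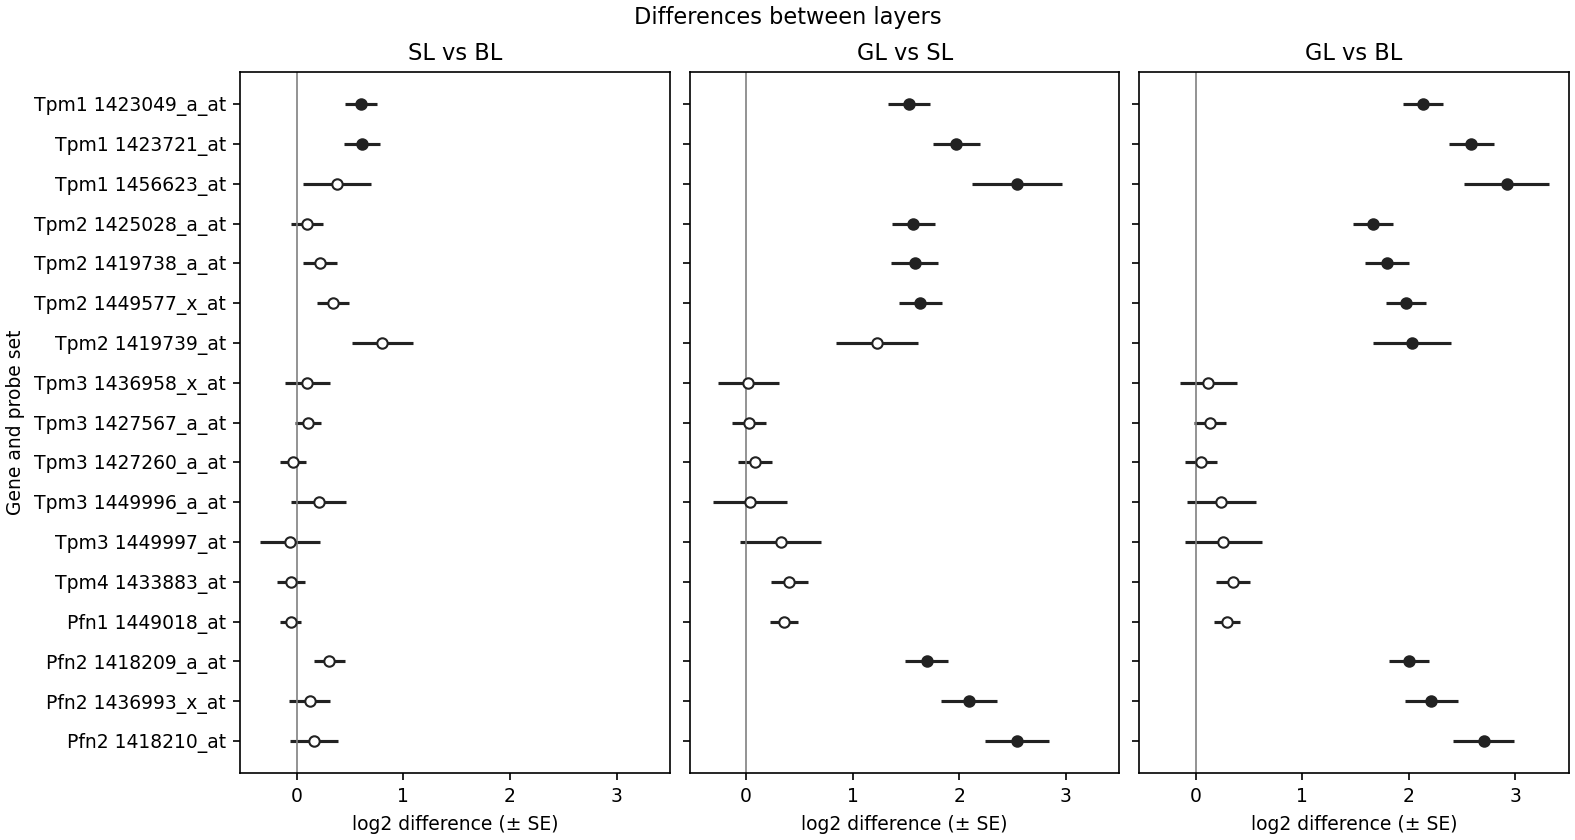
Log2 difference ± SE of 17 member probe sets for SL against BL, GL against SL and GL against BL, with filled symbols for an adjusted p under 0.05 and the probe set never above background left out. The filled symbols are 2 of Tpm1 in SL against BL, 9 of Tpm1, Tpm2 and Pfn2 in GL against SL, and 10 of Tpm1, Tpm2 and Pfn2 in GL against BL.

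Between the SL and BL fractions, Tpm1 was the member that passed the test, and the call depended on single arrays. Tpm1 was higher in SL by 0.60 ± 0.15 log2 units on 1423049_a_at (1.52-fold, n = 4 and 6, adjusted p = 0.0284) and by 0.61 ± 0.17 on 1423721_at (adjusted p = 0.0499). These were the 2 of 18 probe sets called higher, with 0 lower, where 2.11% of all probe sets were called higher and 1.82% lower, and in 0 of the 18 did all SL arrays lie above all BL arrays, where 1.81% of all probe sets did. The call for 1423049_a_at was lost when 1 array was left out in 6 of 12 fits, namely without BL LRC 2 (adjusted p = 0.0661), BL LRC 3 (0.0718), SL LRC 1 (0.159), SL LRC 2 (0.0545) or the SL non-LRC arrays 1 (0.147) and 2 (0.0625), and with the replicate number as a block (0.0507). That for 1423721_at was lost in 10 of 12 such fits, all but those without BL LRC 2 (0.0385) and SL LRC 2 (0.0116), with a highest adjusted p of 0.304. Pfn2 was at 0.31 ± 0.15 (adjusted p = 0.356) and Tpm2 at 0.10 ± 0.15 (adjusted p = 0.856). The layer difference again averages unlike groups: SL LRC minus BL LRC was -0.26 for Tpm1, -0.89 for Tpm2 and -0.48 for Pfn2, while SL non-LRC minus BL non-LRC was 1.47, 1.08 and 1.09. Within BioB sets these were -0.16, -0.74 and -0.47 on the high arrays of LRC, and 1.03, 0.91 and 0.76 on the low arrays of non-LRC, the last against the single array BL non-LRC 1.

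Label retention is what the genes were picked on. In BL, LRC minus non-LRC was 0.09 ± 0.19 for Tpm1 and 0.07 ± 0.19 for Pfn2, with the groups overlapping, and -1.16 ± 0.19 for Tpm2, 2.23-fold lower in LRC. In SL the difference was -1.64 ± 0.23 for Tpm1 (3.11-fold lower in LRC), -3.13 ± 0.23 for Tpm2 (8.73-fold) and -1.50 ± 0.23 for Pfn2 (2.84-fold). The SL difference minus the BL difference was -1.73 for Tpm1, -1.97 for Tpm2 and -1.58 for Pfn2. Of all probe sets 0.00572% were called in that contrast. Tpm3 1436958_x_at was at -0.33 in BL and 0.44 in SL, Tpm4 at -0.02 and 0.12, and Pfn1 at -0.09 and -0.19. The rule set no threshold, so no member stands just inside or outside one.

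The probe sets of a gene showed this pattern to different degrees. In SL the arrays of LRC and non-LRC were apart in 10 of 18 probe sets with LRC lower (4 of Tpm2, 3 of Pfn2, 2 of Tpm1 and Pfn1) and in 3 with LRC higher, all of Tpm3, where 22.1% and 24.8% of all probe sets were. In BL they were apart in 3 of 18 with LRC lower, all of Tpm2, where 6.87% of all probe sets were. The 4 Tpm2 probe sets spanned -3.36 to -2.29 in SL and -1.16 to -0.55 in BL. Tpm1 1456623_at stood apart from its gene, at 1.16 ± 0.40 in BL and -0.51 ± 0.49 in SL. With the BioB set as a term in the model the SL difference was -1.17 for Tpm1, -2.78 for Tpm2 and -1.24 for Pfn2. The SL minus BL value was then -1.26, -1.62 and -1.31. That term is estimated from BL alone and carried over to SL, where it cannot be separated from the label. In BL the low set is BL LRC 1 and BL non-LRC 1, which also had 0 of 3 Y-linked genes above the floor, so the term mixes both differences. For Tpm2 1425028_a_at in BL, LRC minus non-LRC was -1.22 on the high-BioB arrays (2 against 2) and -1.03 on the low ones (1 against 1). The other Tpm2 probe sets gave -1.22 and -0.82 (1419738_a_at), -0.76 and -1.70 (1449577_x_at), and -0.80 and -0.05 (1419739_at). For the brightest probe sets of Tpm1 and Pfn2 the sign changed between the sets, at 0.21 and -0.14 for Tpm1 and 0.22 and -0.23 for Pfn2.

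**Figure D3:**
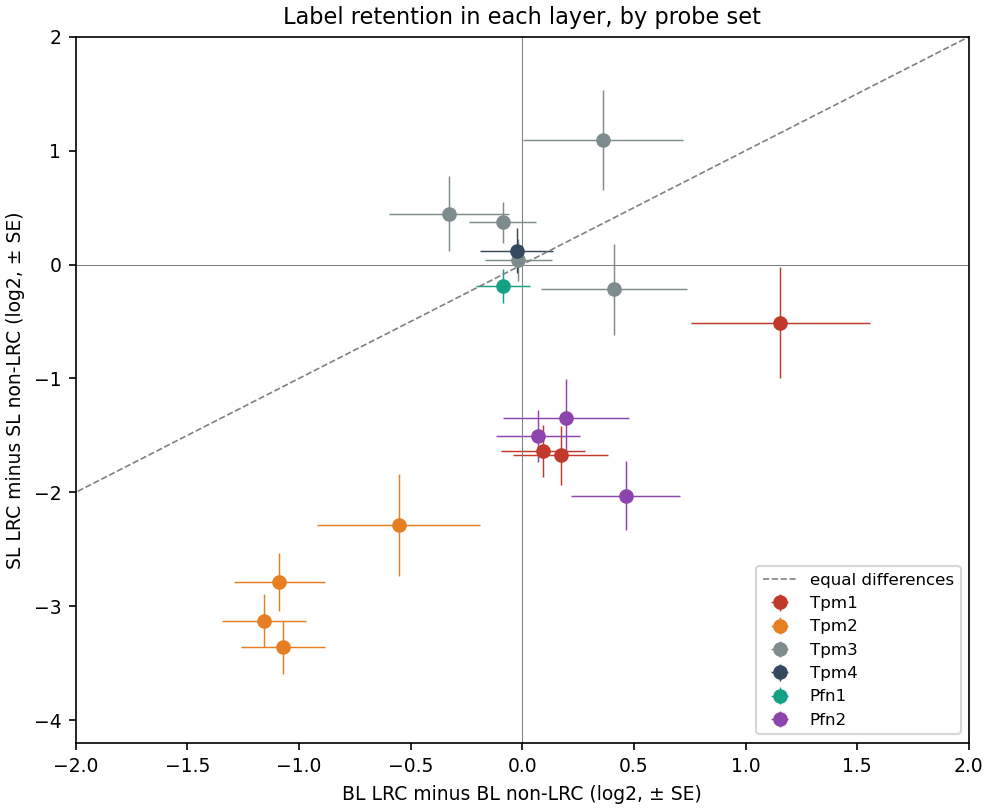
LRC minus non-LRC (log2 ± SE) in SL against the same difference in BL for 17 member probe sets, coloured by gene, with a dashed line where both are equal. Tpm1 and Pfn2 lie below the line, at 0.07 to 0.46 in BL except for Tpm1 1456623_at at 1.16, Tpm2 lies lowest at -3.36 to -2.29 in SL and is negative in both layers, and Tpm3, Tpm4 and Pfn1 lie between -0.33 and 1.09 on both axes.

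Genes of other cell types moved with the same groups. In bulk samples fewer cells of a type and less RNA per cell cannot be told apart. Over all genes, 7.66% were called in either direction in GL against SL, 16.5% in GL against BL and 4.71% in SL against BL. For LRC against non-LRC the shares were 4.07% in SL and 1.47% in BL. In GL against SL, 8 of 9 Langerhans and myeloid markers were higher, 5 of the 6 T cell markers with a probe set, 5 of 8 markers of the hair follicle bulge and outer root sheath and 2 of 8 melanocyte markers. The summed intensity of the myeloid markers was 27595 and 59191 in GL, 3562 and 8549 in SL non-LRC, 1278 and 1678 in SL LRC and 1403 to 3128 in BL. That of the T cell markers was 8382 and 26490 in GL, 2280 to 4411 in SL and 3892 to 7975 in BL. Thy1 made up most of this sum in BL (3144 to 7216) and SL (1563 to 3351), and read 5220 and 1372 in GL. Cd3e, by contrast, read 6784 and 1894 in GL, 154 to 418 in SL and 152 to 486 in BL. Of 8 hair shaft and inner root sheath markers, 3 were higher and 1 lower in GL against SL, 7 higher and 1 lower in GL against BL (median 4.74), and 5 higher in SL against BL. Their summed intensity was 8780 and 12115 in GL, 6589 and 5917 in SL non-LRC, 12362 and 13731 in SL LRC and 6510 to 11108 in BL. Gata3, the marker that was lower in GL than in SL, dominated this sum outside GL. It read 3459 and 4555 in GL, 5270 and 4155 in SL non-LRC, 11405 and 11761 in SL LRC and 6225 to 10816 in BL. Bulge markers summed to 44316 and 44366 in GL, 26941 and 31431 in SL non-LRC, 9022 and 11149 in SL LRC and 4533 to 11459 in BL. Melanocyte markers summed to 2171 and 3162 in GL, 1308 and 1355 in SL non-LRC, and 600 to 813 in the other groups. In SL, LRC against non-LRC, 5 of 8 bulge markers, 7 of 9 infundibulum and sebaceous markers, 3 of 9 myeloid and 2 of 8 melanocyte markers were lower. Spinous keratinocyte markers were higher in LRC for 5 of 8 in SL and 4 of 8 in BL, and their part in the label differences was not tested. In BL 8 of 9 infundibulum and sebaceous markers and 2 of 8 bulge markers were lower in LRC. The infundibulum and sebaceous markers summed to 17207 to 21114 in BL LRC, 47875 to 84018 in BL non-LRC, 43205 and 44723 in SL LRC, 96354 and 107230 in SL non-LRC, and 71594 and 76145 in GL.

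Levels of single arrays and markers were as follows. GL 1 and GL 2 differed in summed myeloid signal, 59191 against 27595, and in T cell signal, 26490 against 8382, while Tpm1 read 17435 and 16718, Tpm2 6173 and 6862 and Pfn2 16844 and 17975 on the same arrays. The 12 smooth muscle and pericyte markers summed to 890 to 1518 in BL and SL and to 2308 and 2431 in GL, where Smtn alone gave 1498 and 1816. Smtn was higher in GL than in SL by 2.00 ± 0.37 (adjusted p = 0.00286) and Cspg4 lower by -1.69 ± 0.39 (adjusted p = 0.0133). Acta2, the smooth muscle actin, was dim but above background on all 12 arrays and read 276 and 123 in SL non-LRC and 115 and 235 in GL, against 43 to 89 in the other groups. Des and Actg2 were below background on all 12 arrays. The 12 skeletal muscle markers summed to 292 to 591 throughout. The part of any of these cell types' signal in the Tpm1, Tpm2 and Pfn2 differences was not tested. RNA integrity was read from the Actb controls as the log2 signal of the 3′ probe set minus that of the 5′ probe set. This value was -0.071 and -0.049 in GL and -0.095 and -0.039 in SL non-LRC, and -0.33 to -0.13 in the other groups. The same value for Gapdh did not split the groups in this way, at 1.22 and 0.68 in GL, 0.84 and 1.02 in SL non-LRC and 0.68 to 0.96 in the others. The part of RNA integrity was not tested either.

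**Figure D4:**
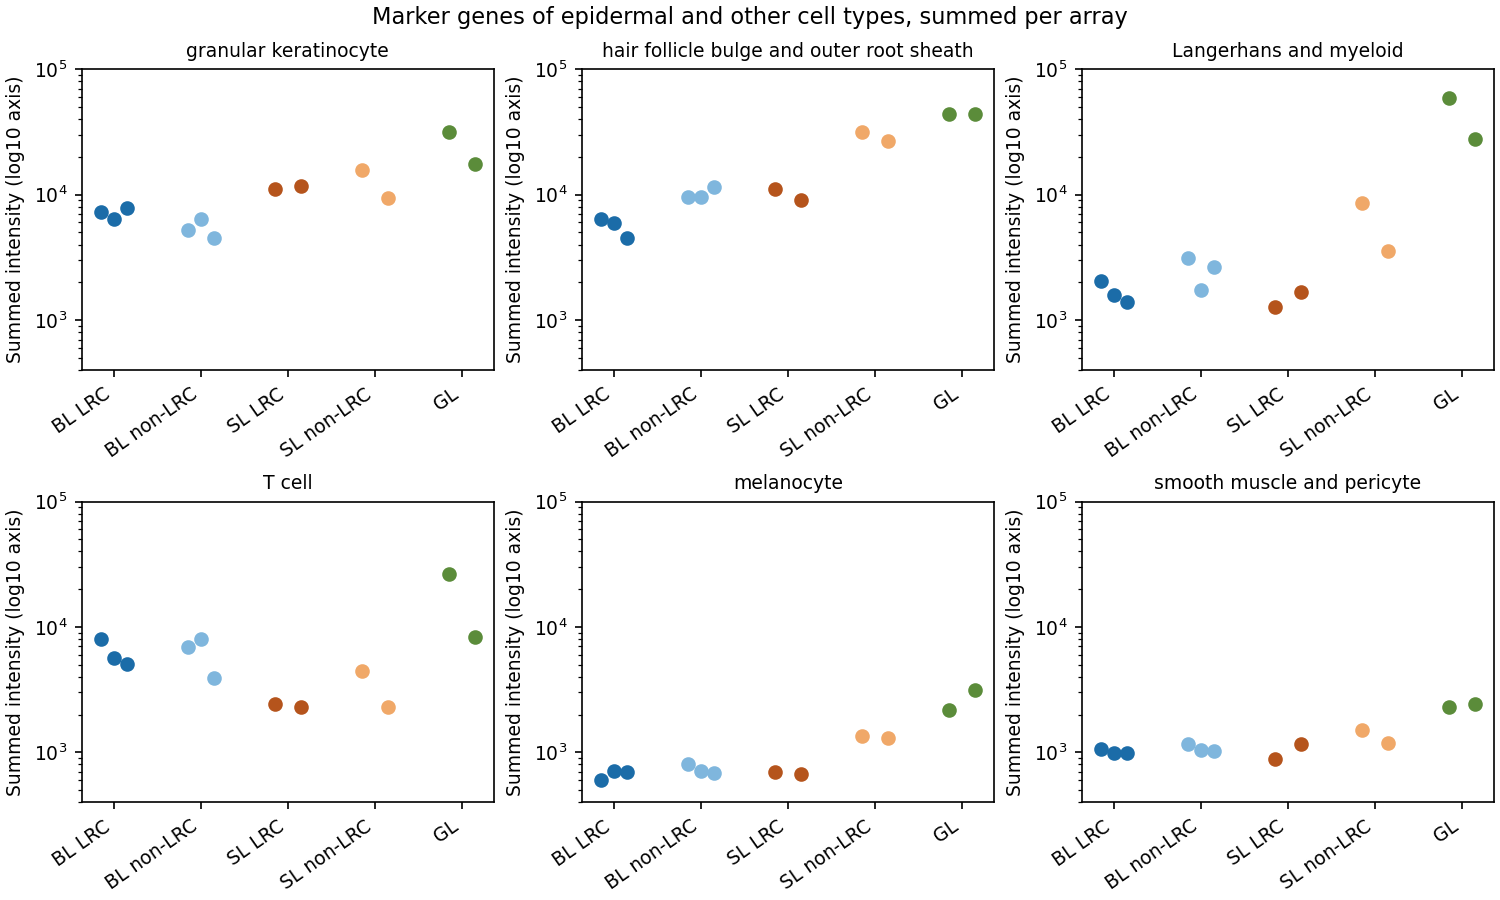
Summed intensity (log10 axis) on each array of 6 marker lists, by sorted group. Thy1 makes up most of the T cell sum in BL and SL. Bulge and melanocyte markers are higher in SL non-LRC and GL than in the other groups, myeloid markers reach 27595 and 59191 in GL, and smooth muscle markers stay under 2500 on every array.

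Other genes of the actin cytoskeleton were read from 7 lists, in which 123 genes matched a single-gene probe set and 7 did not, each gene by its probe set of highest mean. In GL against SL, 25 were higher and 8 lower, 26.8% of the 123, where 7.66% of all 18193 genes were called, and their median difference was 0.22 against -0.03. Without GL 1 the count of called genes was 13 in place of 33. In GL against BL, 35 were higher and 13 lower, 39.0% where 16.5% of all genes were called, and 30 without GL 1. In SL against BL 5 were higher and 6 lower, 8.94% against 4.71% of all genes, and 5 were called without SL LRC 2 or SL non-LRC 1 and 6 without SL non-LRC 2.

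Filament crosslinkers and focal adhesion proteins held 15 of the 33 calls in GL against SL, 20 of 48 in GL against BL, 4 of 11 in SL against BL and 7 of 10 in the SL label comparison. In GL against SL 12 of 28 rose and 3 fell. Their median difference was 0.73, and 9 were called without GL 1. Actn1, the alpha-actinin of stress fibres, rose by 2.50 ± 0.21 log2 units (adjusted p = 2.15e-06). Fscn1, which bundles filaments in protrusions, rose by 3.29 ± 0.37 (adjusted p = 3.67e-05). Lcp1, the plastin of leukocytes, rose by 4.63 ± 0.57 (adjusted p = 9.16e-05). Lasp1, an adhesion protein, rose by 1.09 ± 0.17 (adjusted p = 0.000792). Actn1 read 1081 to 4105 in SL and 11067 and 12592 in GL, apart as Tpm1 was. In SL 7 of the 28 were lower in LRC and 0 higher, with a median of -0.67 and 4.07% of all genes called, and 4 were called without SL LRC 1 or without SL non-LRC 1. They include Lasp1 (-1.72 ± 0.20, adjusted p = 0.000122), Actn1 (-1.81 ± 0.24, adjusted p = 0.000381), Fscn1 (-2.70 ± 0.42, adjusted p = 0.00145) and Cald1 (-3.50 ± 0.60, adjusted p = 0.00303), the caldesmon that binds actin together with tropomyosin. Cald1 read 126 and 173 in SL LRC and 1899 and 1474 in SL non-LRC. With the BioB term 4 of the 28 were called.

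Monomer binding, nucleation and motor lists gave fewer calls. Among 18 genes of monomer binding and turnover, 4 were higher in GL than in SL. Tmsb10, which sequesters monomers as profilin binds them, rose by 1.37 ± 0.17 (adjusted p = 8.1e-05) and the cofilin phosphatase gene Ssh1 by 2.33 ± 0.35 (adjusted p = 0.00052). Ssh1 was lower in SL than in BL, by -2.24 ± 0.26 (adjusted p = 6.78e-05), and its GL values (402 and 527) lay within its BL range (343 to 632). Coro1a, the coronin of leukocytes, rose by 3.15 ± 0.56 (adjusted p = 0.00206) and Twf2 by 2.30 ± 0.52 (adjusted p = 0.0121). Tmsb10 was also lower in LRC in both layers, by -0.87 ± 0.16 in BL (adjusted p = 0.00749) and -1.20 ± 0.19 in SL (adjusted p = 0.0018), reading 4427 and 4404 in SL LRC and 10000 and 10278 in SL non-LRC. Of 25 nucleation and elongation genes, 4 were higher in GL than in SL, among them the profilin-binding formin Fmn1 (1.77 ± 0.44, adjusted p = 0.0221), Spire1 (2.86 ± 0.50, adjusted p = 0.00188) and Evl (1.74 ± 0.34, adjusted p = 0.00461). The fourth, Fmnl1, a formin of leukocytes, was below background on all SL arrays and read 684 and 118 in GL (adjusted p = 0.00633).

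Of 20 genes of non-muscle myosin and its regulators, 3 were higher in GL than in SL, Mylk (3.31 ± 0.61, adjusted p = 0.0029), Arhgef2 and Rhob. In GL against BL 7 of the 20 were higher, among them the myosin heavy chain Myh14 (1.37 ± 0.29, adjusted p = 0.00334) and the light chains Myl9 and Myl12a, and in SL against BL 2 were, Myh14 (0.91 ± 0.23, adjusted p = 0.0316) and Myl9. Myl9 was mostly below background in BL and read 394 and 223 in SL non-LRC and 423 and 639 in GL. Myl12a is named after its value had been seen. Tropomodulins cap the pointed end of filaments coated with tropomyosin, and 2 of them were lower in GL than in SL. Tmod3 fell by 0.87 ± 0.21 (adjusted p = 0.0188) and Tmod4 by 1.74 ± 0.35 (adjusted p = 0.0058). In their list of 19 capping and severing genes 4 were lower and 1 higher, Eps8, which is named outside the rule, after its value had been seen. The 6 actin genes had 0 calls in GL against SL, and Actb read 22410 to 29534 over all 12 arrays. Actg1 was higher in GL than in BL by 0.43 ± 0.12 (adjusted p = 0.0185). Among the 7 genes of SRF, its cofactors and targets, Ccn1 fell by 2.67 ± 0.31 in GL against SL (adjusted p = 5.48e-05) and Thbs1 rose by 0.94 ± 0.27 (adjusted p = 0.0467). Thbs1 was lower in SL than in BL, by -1.02 ± 0.20 (adjusted p = 0.0068), and its GL values (569 and 611) lay within its BL range (449 to 918).

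Label retention touched few of the 123 genes outside the crosslinkers. In SL 8 were lower in LRC and 2 higher, 8.13% against 4.07% of all genes. The count of called genes was 6 without SL non-LRC 2 or either SL LRC array, and 5 with the BioB term. In BL 3 were lower in LRC, Tmsb10, Mylk and Parva, and 0 higher, 2.44% against 1.47% of all genes, and 0 were called without BL LRC 3 or without BL non-LRC 3. For the difference between the label effects of the layers, limma called 0 of 123 and 0 of 18193 genes, with 1285 genes at an unadjusted p under 0.05.

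**Figure D5:**
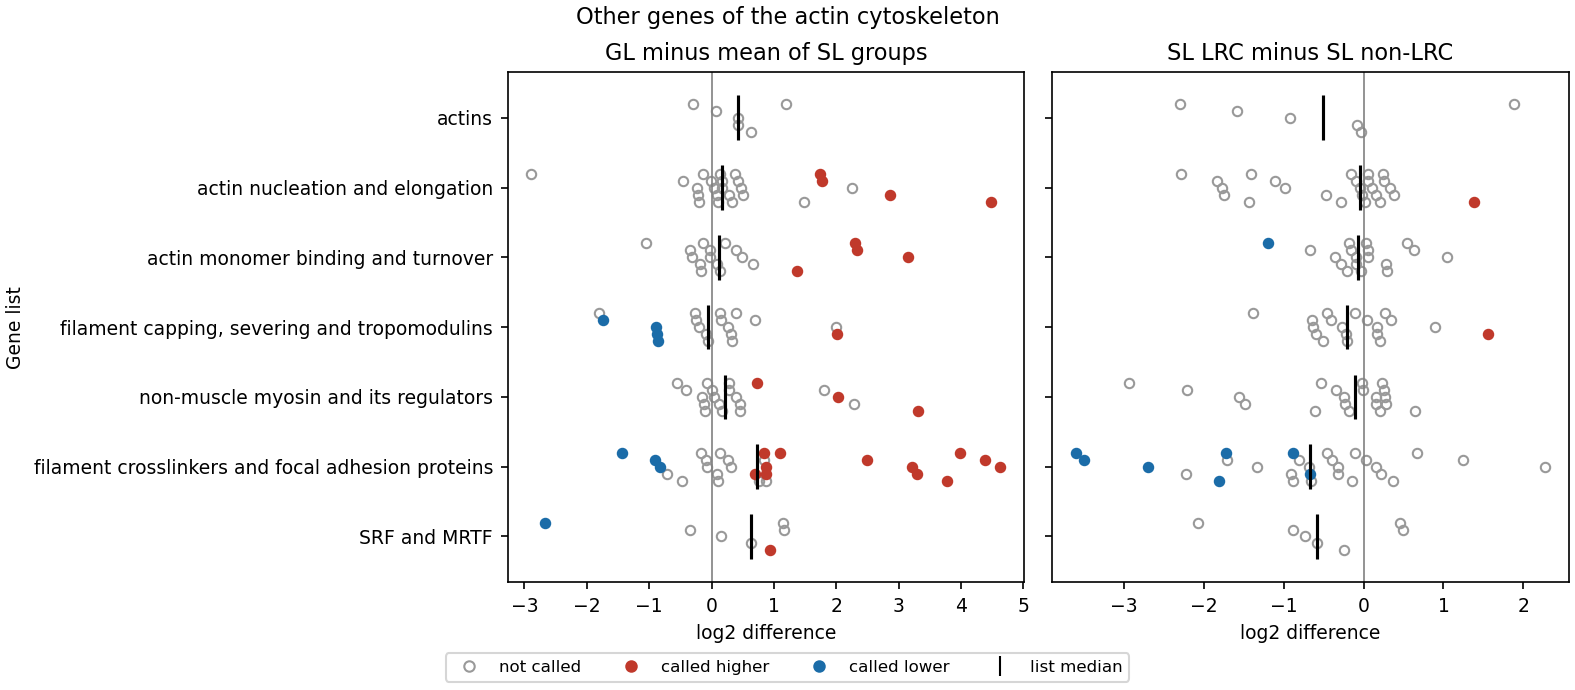
Log2 differences of the genes in 7 actin lists for GL against the mean of the SL groups and for SL LRC against SL non-LRC, with filled symbols for called genes and black bars at list medians. Crosslinkers and focal adhesion proteins have 12 genes called higher and 3 lower in GL and 7 called lower in SL LRC, and the other 6 lists hold the remaining 18 of 33 calls in GL, with medians from -0.05 to 0.63.

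Over the 12 arrays, Tpm1 and Pfn2 were among each other's nearest matches. Among 15945 genes above the floor on at least 2 arrays, the probe set most like that of Tpm1 was Pfn2 (Pearson r = 0.960), followed by Rnf150 (0.957), Fkbp1a (0.957), Unc5b (0.956) and Aldh1a2 (0.954). For Pfn2 the list read Dct (0.965), Myo10 (0.962), Tpm1 (0.960), Runx3 (0.954) and Lgals1 (0.954), and Dct, a melanocyte gene, averaged 214 in SL non-LRC and 1145 in GL. Tpm2 was most like Clic4 (0.984), Enc1 (0.965), Ssr2 (0.954), Cdk2ap1 (0.949) and Apoe (0.948), with r = 0.790 to Tpm1 and 0.813 to Pfn2. Clic4, a chloride intracellular channel protein, averaged 8032 in GL, 6717 and 1830 in non-LRC and LRC of SL, and 5028 and 3025 in non-LRC and LRC of BL. Pfn1 was at r = 0.63 to 0.71 with these 3 genes, Tpm4 at 0.21 to 0.44 and Tpm3 at -0.20 to -0.13. These are descriptions over 12 arrays that share 5 groups and the BioB sets. Tpm1, Tpm2 and Pfn2 were picked on a pattern in the same arrays, so a high r among them is no separate finding. Aldh1a2 averaged 3.9, 3.7 and 5.7 in BL LRC, BL non-LRC and SL LRC, under the lowest background floor of 22.4. It averaged 186 in SL non-LRC and 672 in GL, the groups through which it passed the filter. Rnf150 averaged 31, 15 and 9.1 in BL LRC, BL non-LRC and SL LRC, near or under the floors of 22.4 to 42.6. In SL non-LRC and GL Rnf150 averaged 120 and 742.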

How the data were processed

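Cells were sorted from mouse back skin, and per the labels 5 ng of RNA was amplified (Ovation Pico WTA) and biotinylated (Encore), both with NuGEN reagents. The deposited values are intensity values per probe set. The authors' scaling, recomputed from the files, set the 2% trimmed mean of each array to 500.0. No source used here names the summarising software.

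The design assumed log2 values, but the deposited intensities are linear, so log2 was taken with nothing added. Control probe sets (64) and those with several genes (932) or none (9160) were left out. The background floor is the 95th percentile of 27 bacterial probe sets on each array. limma 3.58.1 in R 4.3.3 fitted 5 group means over all 12 arrays, with a trended empirical Bayes spread and Benjamini-Hochberg adjustment over 34945 probe sets. Errors are moderated standard errors, and the number of arrays limits the precision. A gene with several probe sets is represented, where 1 is used, by that of highest mean. The text names all member probe sets, up to 4 genes of smallest p per actin list and comparison, and the 5 genes most like Tpm1, Tpm2 and Pfn2. Scripts were tested on simulated data. The members and gene lists were chosen with earlier results of these data known. Alternatives covered scaling, an offset of 16, a filter on dim probe sets, the replicate block, the BioB set, and leaving out arrays. Figures used Python 3.11.15 and matplotlib 3.10.9. Promoters are RefSeq's and matched all 6 genes.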

Additional observations from a re-analysis of the deposited data

Results flagged for a closer look

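The label effect of Tpm2 on probe set 1449577_x_at differed between the layers by -2.29 log2 units (SL minus BL), and it is listed here for that difference between the layers. This contrast is what the genes were picked on, so the value is a description that supports nothing. LRC minus non-LRC was -3.36 in SL and -1.07 in BL. The other Tpm2 probe sets gave -1.97 (1425028_a_at), -1.70 (1419738_a_at) and -1.74 (1419739_at) for SL minus BL. By its suffix, 1449577_x_at can hybridise to related transcripts. Over all 34945 probe sets 2 were called in this contrast and 2318 had an unadjusted p under 0.05.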

How the results depend on the processing

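The 9 member probe sets called in GL against SL and the 10 called in GL against BL kept direction and call under every alternative that gave a value and in all 12 fits without 1 array. For the brightest probe sets of Tpm1, Tpm2 and Pfn2 the GL differences then ranged from 1.40 to 2.29 log2 units. Leaving out a GL array leaves 1, assumed to vary like the other groups. Only high-BioB arrays could not serve SL vs BL, GL vs SL, the SL label effect or the difference of label effects, since both SL non-LRC arrays are of low BioB. The BioB term rests on the BL arrays alone, as no SL or GL group holds both sets.

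Directions that turned all belong to differences that were not called or not tested. Centring each array on its median turned Tpm4 (0.0089) and Pfn1 (0.0037) in SL vs BL and Tpm3 1436958_x_at in GL vs SL (-0.11). The BioB term turned Tpm3 in GL vs SL (-0.45), GL vs BL (-0.20, also on high-BioB arrays alone) and the SL label effect (-0.50). Without 1 array, Tpm3 ranged from -0.10 to 0.22 in SL vs BL, -0.15 to 0.19 in GL vs SL and -0.083 to 0.29 in GL vs BL, Tpm4 from -0.13 to 0.023 and Tpm2 from -0.014 to 0.20 in SL vs BL. The untested BL label difference ranged without 1 array from -0.15 to 0.31 for Tpm1 and from -0.12 to 0.24 for Pfn2. Under the other alternatives it ranged from -0.0083 to 0.21 and from -0.029 to 0.22, so its sign is open for both genes. The cause was not tested.

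Counts of called probe sets (1374 SL vs BL, 2368 GL vs SL, 5243 GL vs BL, 452 BL label, 1296 SL label, 2 for the difference of label effects) became 915, 1510, 3106, 279, 763 and 0 with 1 probe set per gene, where fewer are tested. The difference of label effects had 0 after median centring, 1 after quantile normalisation, 7 with the replicate block, 12 with the BioB term and 0 with only its own groups. The BioB term gave 522 for SL label. BL label gave 185 on high-BioB arrays and 272 with only its own groups. Without 1 array the counts ranged from 778 to 1452, 866 to 2542, 2740 to 5318, 218 to 488, 375 to 1434 and 0 to 12 in the same order. The lowest came without SL non-LRC 1 (778), GL 1 (866 and 2740), BL non-LRC 3 (218) and SL non-LRC 2 (375). GL vs SL gave 1387 without GL 2, and GL vs BL 3223.

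Counts over the 123 actin genes, an alternative chosen after seeing the data, ranged without 1 array from 5 to 12 (SL vs BL), 13 to 36 (GL vs SL), 30 to 52 (GL vs BL), 0 to 4 (BL label) and 6 to 12 (SL label). Those over the 28 crosslinkers ranged from 2 to 5, 9 to 15, 14 to 20, 0 to 2 and 4 to 8. With the BioB term BL label gave 5 and SL label 5 of 123, and 3 and 4 of 28. High-BioB arrays alone gave 1 and 0 for BL label.

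Median centring moved the share of calls that were higher from 53.8% to 40.4% in GL vs SL and from 19.9% to 9.73% in BL label, as the median of all probe sets in GL vs SL moved from -0.02 to -0.15. Replicate numbers occur in all groups. Deviations of same-numbered arrays correlated at -0.064 to 0.13 (21 pairs), others at -0.087 to 0.087 (36 pairs), so the numbers were not taken as pairs. In BL, the layer with 3 pairs, every array correlated best with its own number (0.13, 0.073 and 0.080), a hint from the data and not the design. BL LRC 1 and BL non-LRC 1 also share the low BioB signal and the missing Y-linked signal. With the replicate block the counts were 1380, 2601, 5263, 568, 1481 and 7, and Tpm1 in SL vs BL was at 0.45 (adjusted p = 0.0507).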
